A study of Homo sapiens with 9 samples.

Results

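E-cadherin (CDH1), P-cadherin (CDH3), the catenins CTNND1, CTNNB1, JUP and CTNNA1, and the adhesion molecule EPCAM were followed in RT112 cells with lowered STAG2. These are 7 of the 23278 entries of the deposited expression table that are not spike-ins. The set was chosen by name, and selected on results already seen: CDH1 stood lower with one STAG2 hairpin and higher with the other. The values of the 7 genes are therefore a description. Where genes past a threshold are counted over the whole table, the 7 are placed beside that count and nothing is read from it.

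RT112 is an established human bladder carcinoma line. All 9 libraries came from cells grown with serum, transduced with a short hairpin RNA (shRNA) and then kept without serum, so the controls shared the transduction and the serum withdrawal. In 3 control libraries (shNT) the hairpin was a control shRNA, and 3 libraries each carried 1 of 2 hairpins against STAG2, a subunit of the cohesin ring (sh1 and sh2). The labels name a single cell line, give no time after transduction, and do not say whether replicates came from separate cultures. The p-values given here thus reflect how these samples vary, which may be technical variation. Poly(A)+ RNA with added ERCC spike-in RNA was sequenced by a stranded protocol, and levels are FPKM, which count fragments per unit of transcript length and per unit of library size.

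Adherens junctions hold neighbouring epithelial cells together. The outer part of a classical cadherin binds the cadherin of the next cell. Its inner tail carries p120-catenin (CTNND1), which keeps the cadherin at the membrane, and either beta-catenin (CTNNB1) or plakoglobin (JUP). These in turn bind alpha-catenin (CTNNA1), the link to actin. Beta-catenin is also the transcriptional effector of Wnt signalling, plakoglobin is shared with desmosomes, and EPCAM is an epithelial surface protein that can loosen cadherin contacts.

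STAG2 itself stood at 16.8, 34.7 and 27.7 FPKM in the control libraries, 3.76, 4.13 and 5.34 with sh1, and 3.41, 4.93 and 3.48 with sh2. It was lower in 6 of 6 silenced libraries, and over both hairpins the log2 fold change was -2.36 (SE 0.21; adjusted p = 0.00797 in limma). Of the 9 libraries, 2 controls stood apart. In shNT replicate 1 the summed FPKM was 516464, against 397792 to 434433 elsewhere, and gene deviations ran against transcript length (Spearman's rho -0.64 across 10403 genes, against -0.06 to 0.33 in the others). In shNT replicate 3 the 8 epithelial markers summed to 3254 FPKM, against 7527 and 12178 in the other controls, 8456 to 12112 with sh1 and 8570.2 to 11791 with sh2. The keratin KRT5 was 518 FPKM there, while the other controls had 3817 and 1664. KRT17 was 410.1 FPKM, against 4417 and 3025, and KRT8, KRT19 and KRT7 were also lowest there among the controls. The other markers did not fall: KRT18 lay between the other controls. CLDN4 (254 FPKM, against 215 and 129) and MUC1 (2.93, against 1.58 and 1.63) were highest there. All 8 epithelial markers were above 0 FPKM in every library, though MUC1 stood at only 0.542 FPKM in sh1 replicate 1. The 8 immune markers summed to 5.14 to 12.9 FPKM in the controls, 3.97 to 7.64 with sh1 and 5.8 to 8.64 with sh2. The highest of them was CD68, at 2.09 to 12.1 FPKM, and MS4A1 was at 0 throughout. Of 8 endothelial markers 7 were below 1 FPKM throughout, but EGFL7 stood at 11.3 to 26.3 FPKM. Of 8 fibroblast markers 6 were below 1 FPKM throughout, with COL1A2 at 0, but LUM reached 408 FPKM. The part of these library differences in the results below was not tested, and some values without the library are given beside them.

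E-cadherin, the main cadherin of simple and transitional epithelia, was the gene of the set that differed most between groups. CDH1 stood at 80.9, 102 and 75.3 FPKM in the control libraries. With sh1 it stood at 40.0, 30.8 and 39 FPKM. With sh2 it stood at 143, 112 and 113 FPKM. The 3 groups did not overlap: every sh1 library lay below every control, and every sh2 library lay above every control. The group means were 86.2 ± 14.4 (shNT), 36.6 ± 5.02 (sh1) and 123 ± 17.5 FPKM (sh2) (SD, n = 3 each). The sh1 mean was 0.425 times the control mean and the sh2 mean 1.43 times. Against the control of the same replicate number the ratios were 0.494, 0.301 and 0.518 with sh1, and 1.77, 1.1 and 1.5 with sh2. The ratio nearest to 1 was that of sh2 replicate 2. On log2(FPKM + 1) the CDH1 difference was -1.21 (SE 0.17) for sh1 and 0.51 (SE 0.17) for sh2, both against the same control libraries. Between the hairpins it was 1.72 (SE 0.17). The mean over both hairpins, -0.35 (SE 0.15), averaged values of opposite sign and describes neither hairpin.

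**Figure D1:**
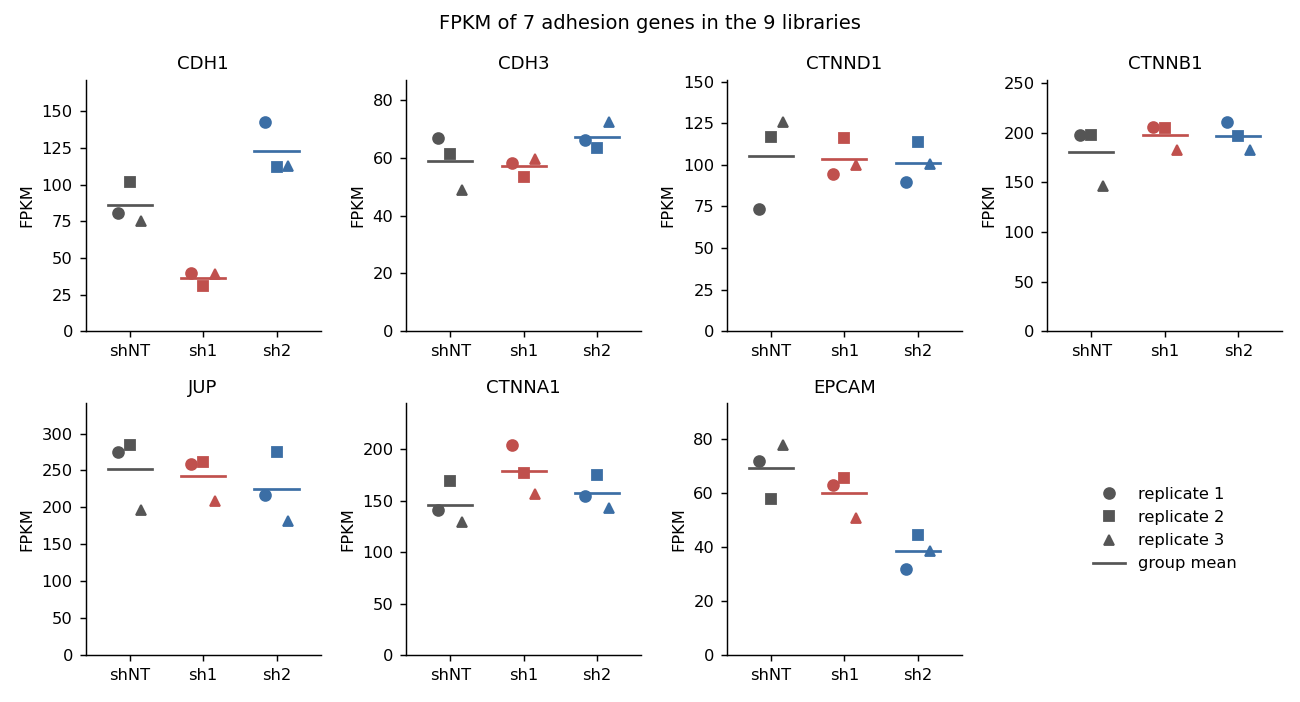
FPKM (y axis, from 0) of the 7 genes in each library, by group (x axis); symbols mark the replicate number and bars the group mean. CDH1 is the panel in which the 3 groups separate, with 30.8 to 40.0 in sh1, 75.3 to 102 in shNT and 112 to 143 in sh2, and EPCAM is lowest in sh2.

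The 2 stretches shown next are the places in the CDH1 3' UTR that hold the heptamer AGCTTTA. It was looked for because earlier results of these data had listed it. Of 16 genes past the limma threshold and lower with sh1, STAG2 aside, 11 held it in the 3' UTR, CDH1 among them. Because the heptamer was taken from these data, that count and its presence in CDH1 are no test. The count also rests on the sh1 call, which changed with the settings, and the 3' UTR lengths of the 16 were not compared. The stretches were read from the GENCODE v29 transcript CDH1-201, whose 3' UTR has 2049 bases, on the plus strand of GRCh38, with the heptamer in capitals. The first stretch is chr16:68833626-68833655, with its heptamer beginning at base 138 of the 3' UTR. The second is chr16:68835267-68835296, with its heptamer beginning at base 1779.
CDH1 first match: gcagttagtatAGCTTTAtactctctccac
CDH1 second match: tttgttgaaatAGCTTTActgtttctcaag

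The search read the transcript strand of 1 transcript for each gene, the longest of those that GENCODE marks as principal or, where none is marked, of all coding ones. None of the other 6 genes held the heptamer in the 3' UTR of that transcript. Among their other coding transcripts, 1 match at most was found in a 3' UTR of CTNNB1 and none in the others. Before the 3' UTR, the searched CTNNB1 transcript held the heptamer at 2 places and CDH1-201 at 0. In the 3' UTR the heptamer was present in 14% of 10327 tested genes searched in the same way, whose 3' UTRs had a median of 1110 bases. That share is background, and nothing is read from the genes lower with sh1 beside it. The sequences of the hairpins were not used here, and the part of these matches in the CDH1 level was not tested.

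P-cadherin, the cadherin of basal layers and the gene next to CDH1 on chromosome 16, differed less between groups. CDH3 stood at 66.9, 61.4 and 48.8 FPKM in the controls. With sh1 it stood at 58.3, 53.5 and 59.5 FPKM. With sh2 it stood at 66.1, 63.4 and 72.6 FPKM. Both silenced groups overlapped the controls, and sh2 lay above sh1 without overlap. The log2 differences were -0.037 (SE 0.14) for sh1 and 0.20 (SE 0.14) for sh2, the latter 0.069 without shNT replicate 3. Over the 9 libraries CDH3 and CDH1 had a Pearson's r of 0.58 and a Spearman's rho of 0.75, given as a description of libraries that share their grouping. The CDH1 to CDH3 ratio, which needs no scaling between libraries, was 1.21 to 1.67 in the controls, 0.577 to 0.687 with sh1 and 1.56 to 2.16 with sh2. E-cadherin was thus the more abundant of the 2 transcripts per length in all control and sh2 libraries, and P-cadherin in all sh1 libraries. As a share of their sum CDH1 made up 59.3% ± 4.06 in shNT, 39% ± 2.14 in sh1 libraries and 64.4% ± 3.77 in sh2 libraries (SD, n = 3 each). The summed FPKM of the 2 cadherins was 145 ± 20.0, 93.7 ± 8.09 and 190.3 ± 17.1 in the same order.

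The order of genes along chromosome 16, as given by RefSeq on GRCh38.p14, placed PRMT7, SMPD3 and ZFP90 before CDH3 and CDH1, and TMCO7 (now TANGO6), HAS3 and CHTF8 after them. The 3 groups did not separate in any of these 6 neighbours in the way they did for CDH1. PRMT7, an arginine methyltransferase, had log2 fold changes of -0.23 with sh1 and -0.20 with sh2. ZFP90, a zinc finger protein, had -0.23 and -0.038. TMCO7 had 0.13 and -0.031, and CHTF8, a part of a clamp loader, had -0.048 and -0.16. HAS3, which makes hyaluronan, stood at 18.6 FPKM in shNT replicate 3 and at 1.77 and 3.57 in the other controls, with log2 fold changes of -0.39 and -0.52. Without that library they were 0.43 and 0.30. None of the 5 tested neighbours passed in limma in any comparison between groups, with sh1 adjusted p values of 0.518 to 0.911 and a smallest unadjusted p of 0.119 over the 4 comparisons. SMPD3 stayed between 0.27 and 0.635 FPKM and was not tested.

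**Figure D2:**
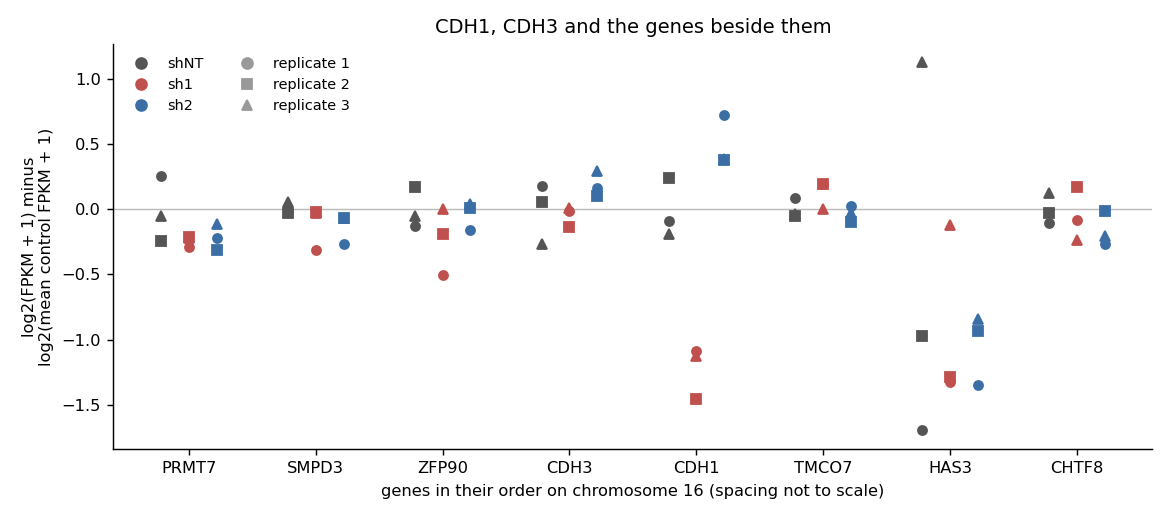
Log2(FPKM + 1) of each library minus the log2 of the control mean + 1 (y axis) for CDH1, CDH3 and the 3 genes on either side in chromosome order (x axis); colours mark the group and symbols the replicate number. The sh1 and sh2 points lie apart on opposite sides of the controls at CDH1, while at HAS3 the highest point is shNT replicate 3 (18.6 FPKM).

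p120-catenin binds the cadherin tail near the membrane and shields it from uptake. CTNND1 stood at 73.5, 117 and 126 FPKM in the controls. With sh1 it stood at 94.4, 116 and 100.2 FPKM. With sh2 it stood at 89.8, 114 and 100.3 FPKM. The group means lay within 106 ± 28.2 of the controls, at 104 ± 11.5 and 102 ± 12.4 (SD, n = 3 each). The low value was that of shNT replicate 1, and the gene has the longest transcript of the 7 (6553 bases in GENCODE v29). Without that library the log2 differences were -0.23 for sh1 and -0.27 for sh2, in place of 0.0057 and -0.026 (SE 0.21 each).

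Beta-catenin and plakoglobin share the same binding place on the cadherin tail. CTNNB1 stood at 198, 198 and 146 FPKM in the controls, 206, 205 and 182 with sh1, and 211, 197 and 182 with sh2. The groups overlapped, and the log2 differences were 0.14 and 0.13 (SE 0.16 each). The deposited values of CTNNB1 and JUP had all lost their decimal points, so their absolute level rests on the division by 1000. JUP, the most abundant of the 7 genes per length, stood at 275, 284 and 197 FPKM in the controls, 259, 261 and 209 with sh1, and 217, 275 and 182 with sh2. Its groups overlapped as well, with log2 differences of -0.04 and -0.16 (SE 0.21 each). The summed FPKM of the 2 genes was 433 ± 77.6 in shNT, 440.4 ± 43.1 in sh1 libraries and 422 ± 54 in sh2 libraries (SD, n = 3 each). JUP over CTNNB1 was 1.34 to 1.44 in the controls and 1.15 to 1.27 with sh1, without overlap, and 1 to 1.4 with sh2. CDH1 per CTNNB1 was 0.409 to 0.518 in the controls, 0.15 to 0.214 with sh1 and 0.572 to 0.679 with sh2. There were thus fewer E-cadherin transcripts per beta-catenin transcript in each sh1 library than in any other library.

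Alpha-catenin links the complex to actin filaments. CTNNA1 stood at 141, 169 and 129 FPKM in the controls. With sh1 it stood at 204, 177 and 157 FPKM. With sh2 it stood at 155, 175 and 143 FPKM. The sh1 mean was 1.23 times the control mean and the sh2 mean 1.08 times, and both silenced groups overlapped the controls. The log2 differences were 0.30 and 0.11 (SE 0.16 each). In CTNNA1, CTNNB1 and JUP replicate 3 was the lowest of its group in all 3 groups. Across the 11952 genes tested 10.7% showed that order, and the 3 genes were singled out after their values were seen.

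EPCAM had the opposite pattern to CDH1 with sh2. It stood at 72.1, 57.8 and 77.8 FPKM in the controls. With sh1 it stood at 63, 65.8 and 51 FPKM. With sh2 it stood at 32, 44.5 and 38.7 FPKM. Every sh2 library lay below every control and every sh1 library, while sh1 overlapped the controls. The means were 69.2 ± 10.3, 59.9 ± 7.86 and 38.4 ± 6.24 FPKM (SD, n = 3 each). Relative to the control of the same number the sh2 values were 0.444, 0.771 and 0.498 times as high. The log2 differences were -0.20 for sh1 and -0.83 for sh2 (SE 0.17 each). CDH1 over EPCAM was 0.968 to 1.77 in the controls, 0.469 to 0.764 with sh1 and 2.53 to 4.47 with sh2, with no overlap between groups. In bulk RNA a lower level can mean fewer cells with the transcript or less of it per cell, and these cannot be told apart.

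**Figure D3:**
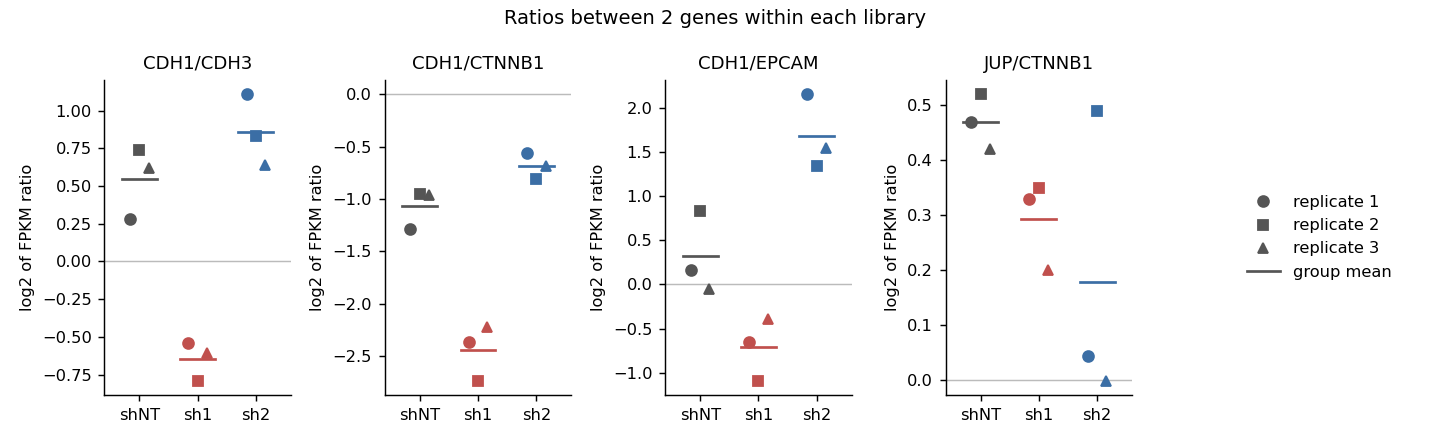
Log2 of the FPKM ratio of 2 genes within a library (y axis) by group (x axis); symbols mark the replicate number and bars the group mean. CDH1/CDH3 is below 0 in the 3 sh1 libraries and above 0 in the other 6, and CDH1/EPCAM is highest in sh2 (ratios of 2.53 to 4.47).

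Within the set the levels per length kept much of their order. In the controls JUP (252 FPKM), CTNNB1 (181) and CTNNA1 (146) came first, with overlapping ranges between neighbours, followed by CTNND1 (106), CDH1 (86.2), EPCAM (69.2) and CDH3 (59), also overlapping from one to the next. The gap between CTNNA1 and CTNND1 had no overlap. CDH1 was the fifth in the controls, the last in sh1, where it lay below CDH3 in all 3 libraries, and the fourth in sh2, where it overlapped CTNNA1 and CTNND1. The mean levels over 9 libraries lay at percentiles 88.6 (EPCAM) to 98 (JUP) of the tested genes. The highest library was 4.64 times the lowest for CDH1 and 2.43 times for EPCAM, but only 1.44 to 1.72 times for the other 5. The coefficient of variation over the 9 libraries was 47.9% for CDH1, 27.7% for EPCAM and 10.2% to 16.1% for the rest. Its median over 1293 tested genes with a mean of 50 to 250 FPKM was 18.8%.

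**Figure D4:**
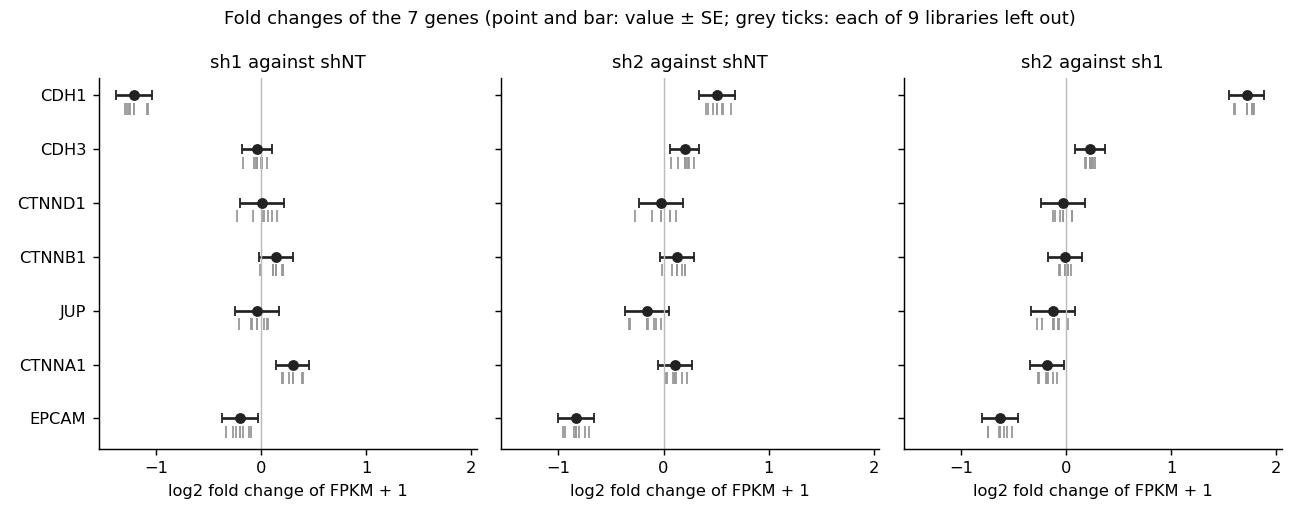
Log2 fold change of FPKM + 1 (x axis) of the 7 genes (y axis) in 3 comparisons; points and bars are the value ± SE and grey ticks the values with each of the 9 libraries left out. CDH1 lies at -1.21, 0.51 and 1.72 and EPCAM at -0.20, -0.83 and -0.63, while the other 5 genes lie between -0.18 and 0.30.

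All 7 genes had a mean of at least 1 FPKM and entered the limma fit over 11952 genes. With sh1 20 genes passed a limma adjusted p of 0.05, 0.167% of those tested, and 1 of the 7 was among them (CDH1). With sh2 and with both hairpins against the control 1 gene each passed, 0.00837% in either case, which was STAG2 and none of the 7. Between the hairpins 26 genes or 0.218% passed, and 1 of the 7 was among them (CDH1). With the replicate number as a block the counts were 77 genes (0.644%) for sh1 and 17 (0.142%) between the hairpins. Under 13 of 15 other settings, the removal of any 1 of the 9 libraries included, none of the 7 was among the genes past the threshold for sh1. Between the hairpins none was among them under 5 of 15, which were no filter on low values and the removal of replicate 1 or 2 of sh1, or 1 or 3 of sh2. The CDH1 values themselves ranged from -1.30 to -1.08 for sh1, from 0.40 to 0.76 for sh2 and from 1.60 to 1.87 between the hairpins over these settings.

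Counted by groups that do not overlap, 1 of the 7 genes lay lower with sh1 than in all controls, against 8.97% of all genes tested, and 0 lay higher, against 8.7%. With sh2 1 gene lay higher, against 6.67%, and 1 lay lower, against 8.54%. The order of CDH1, with all sh1 libraries below and all sh2 libraries above all controls, was found in 27 genes or 0.226%. Since these values had chosen the set, nothing is read from the counts. Some other orders without overlap named in the text have no such share beside them. The shares of all genes with sh2 apart from sh1, or with sh1 apart from all other libraries, were not counted. The median log2 fold change of the 7 genes was -0.037 with sh1 and 0.11 with sh2, beside -0.0074 and -0.012 over all tested genes.

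The genes whose levels ran most like CDH1 over the 9 libraries, by Pearson's r on log2(FPKM + 1), were GOLGA5 (0.960), TMEM64 (0.958) and CCDC117 (0.957). The libraries share their preparation and their grouping, so these coefficients are a description of this one data set. TMEM64 stood at 5.47, 6.56 and 5.74 FPKM in the controls, 2.63, 2.04 and 3.15 with sh1, and 6.67, 6.7 and 5.57 with sh2. CCDC117 stood at 10.8, 14.2 and 12.1, 6.61, 7.23 and 8.05, and 23.3, 15.6 and 15.8 FPKM in the same order, and of the 3 was the gene whose groups were ordered without overlap as in CDH1. GOLGA5, a Golgi coiled-coil protein, ranged only from 20.0 to 28.1 FPKM. The lowest coefficients were those of PACRGL (-0.972), COQ7 (-0.963) and ZCCHC9 (-0.960). With sh1 these lay above the controls without overlap, at 1.26, 1.17 and 1.28 times the control mean. That order was found in 8.7% of all genes tested.

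The genes that act on or beside these 7 were followed in 9 lists with 133 genes, 90 of them tested. In limma 0 of the 90 passed in each of the 4 comparisons. Of all genes tested 0.167% passed with sh1, 0.00837% with sh2, 0.00837% over both hairpins and 0.218% between the hairpins. With shares this low nothing is read from the 0 here, or from that of each list below. At an unadjusted p of 0.05 there were 19 with sh1, 14 with sh2, 16 over both hairpins and 12 between the hairpins. These are 21.1%, 15.6%, 17.8% and 13.3% of the 90, beside 13.5%, 12.7%, 12.6% and 14.1% of all genes tested. With the replicate block 1 gene passed with sh1, the receptor tyrosine phosphatase PTPRU (log2 fold change -0.75, SE 0.12; adjusted p = 0.0471 in limma, against 0.145 without the block). PTPRU stood at 28.4, 33.8 and 40.4 FPKM in the controls, 15.9, 22.1 and 21.7 with sh1, and 28.7, 30.9 and 33.4 with sh2. It was named after its values were seen.

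Of 20 other cadherins only CDH24 reached a mean of 1 FPKM, with 14, 8.36 and 7.46 FPKM in the controls, 14.6, 10.2 and 11.3 with sh1, and 21.5, 9.5 and 16.4 with sh2. N-cadherin (CDH2), the classical mesenchymal cadherin, stayed between 0.108 and 1.61 FPKM. CDH13, an anchored cadherin without an inner tail, stayed between 0.171 and 1.21 FPKM. Low levels of CDH2 were thus found in sh1 libraries as in the others. Of 6 other catenins 3 were tested and 0 passed. CTNNAL1, a relative of alpha-catenin, had log2 fold changes of 0.48 and 0.58 (SE 0.30 each), or 0.15 and 0.24 without shNT replicate 3. PKP4, a relative of p120-catenin, had 0.21 and 0.086 (SE 0.15 each).

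Nectins and actin linkers are the second adhesion system of the junction and its tie to the cytoskeleton. Of 20 such genes 19 were tested and 0 passed in limma with either hairpin, but 16 had a positive log2 fold change with sh1 and 15 with sh2. Their medians were 0.40 and 0.39, beside -0.0074 and -0.012 over all genes. Without shNT replicate 1, in which long transcripts were low, the medians were 0.22 and 0.26. Without sh1 replicate 1 the sh1 median was 0.14, and with spike-in scaling, which moved all genes up, the sh2 median was 0.64. ACTN1, which crosslinks actin, stood at 127, 207 and 70.9 FPKM in the controls, 233, 217 and 214 with sh1, and 229.9, 251 and 202 with sh2. The sh1 values lay above all controls, as in 8.7% of all genes tested. The log2 fold change was 0.84 (SE 0.31), with an adjusted p of 0.292 in limma. Without shNT replicate 3 it was 0.44 with sh1 and 0.48 with sh2. LPP, a LIM protein of junctions, had log2 fold changes of 0.87 and 0.65 (SE 0.28 each), and its low control was replicate 1 (4.88 FPKM, against 13.3 and 10.5). Without that library its values were 0.50 and 0.28. ACTN4 had 0.56 and 0.39 (SE 0.20 each). Of the nectins, PVRL1 had -0.33 and -0.41, PVRL2 0.21 and 0.13, PVRL3 0.57 and 0.67, and PVRL4 0.40 and -0.025. The nectins were named after their values were seen. The values of both hairpins rest on the same 3 control libraries.

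Of 20 genes that phosphorylate, dephosphorylate, cleave, ubiquitinate or take up E-cadherin 19 were tested and 0 passed. PTPN11, a tyrosine phosphatase, stood at 27.8, 43.6 and 42.9 FPKM in the controls, 69.5, 48.7 and 61 with sh1, and 48.8, 48 and 46.3 with sh2. All 6 silenced libraries lay above all controls, with log2 fold changes of 0.65 and 0.34 (SE 0.19 each), the latter 0.14 without shNT replicate 1. Over all genes tested 8.7% lay above all controls with sh1 and 6.67% with sh2, while the share with both was not counted. The receptor phosphatase PTPRM, at only 1.35 to 3.73 FPKM, had 0.49 with sh1 and 0.74 with sh2 (SE 0.19 each). PTPRK had 0.48 and 0.60 (SE 0.36 each). Its controls stood at 75.1, 171 and 58.2 FPKM, and both silenced groups overlapped them. APH1A, a subunit of gamma-secretase, had -0.42 with sh1 and -0.09 with sh2 (SE 0.15 each).

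Of 12 repressors of CDH1 4 were tested and 0 passed. SNAI1, ZEB1, ZEB2, TWIST1 and TWIST2 stayed at or below 0.51 FPKM in every library. SNAI2 (Slug) was the abundant one, with 79.5, 86 and 26.8 FPKM in the controls, 83, 75 and 80.3 with sh1, and 147, 109 and 107 with sh2. It was highest in the sh2 libraries, and its lowest value was that of shNT replicate 3. The log2 fold changes were 0.47 with sh1 and 1.06 with sh2 (SE 0.37 each, limma adjusted p = 0.599 and 0.372), and without shNT replicate 3 they were -0.059 and 0.53. TCF3 (E2A), named after its values were seen, stood at 26.5, 22.6 and 22.8 FPKM in the controls, 33.3, 29.3 and 27.5 with sh1, and 21.8, 22.1 and 24.3 with sh2. Its sh1 libraries lay above all others, at 0.31 (SE 0.13) on the log2 scale, with an adjusted p of 0.329 in limma. Over all genes tested 8.7% had sh1 above all controls, while the share above all others was not counted. The corepressor CTBP1 had -0.25 and -0.19 (SE 0.14 each).

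Of 13 epithelial transcription and splicing factors 11 were tested and 0 passed, with medians of 0.092 and -0.024. The splicing factor ESRP1 stood between 52 and 84.4 FPKM, with log2 fold changes of 0.23 and -0.024, and ESRP2 had -0.21 and -0.48. KLF5, a zinc finger factor of proliferating epithelium, had 0.23 and 0.25, and OVOL2 had -0.28 and -0.14. Without shNT replicate 3 the medians of the list were 0.28 and 0.22, and without shNT replicate 1 they were -0.093 and -0.12. Leaving out a single control thus set their sign.

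Of 16 genes of the beta-catenin destruction complex and Wnt effectors 15 were tested, and of 17 beta-catenin target genes 10. In both lists 0 passed. The kinases GSK3B and GSK3A, which mark beta-catenin for destruction, lay on opposite sides, at 0.65 (SE 0.16) and -0.36 (SE 0.15) with sh1, and 0.31 and -0.38 with sh2. CSNK1A1, the priming kinase, had 0.37 and 0.26. Among targets CCND1 (cyclin D1) stood at 51.2, 58.8 and 74 FPKM in the controls, 102, 83.8 and 111 with sh1, and 49.3, 58.6 and 78.3 with sh2. All sh1 libraries lay above the other 6, at 0.69 (SE 0.20) on the log2 scale, with an adjusted p of 0.213 in limma. Over all genes tested 8.7% had sh1 above all controls, while the share above the other 6 was not counted. ASCL2 had -0.33 and -0.77 (SE 0.18 each), from control values of 2.6, 1.28 and 1.76 FPKM. MYC had -0.44 and -0.52 (SE 0.39 each), and its highest value, 239 FPKM, was in shNT replicate 3. Without that library MYC had 0.036 and -0.048. The median of the target list was -0.21 with sh1 and 0.11 with sh2, the latter -0.042 without shNT replicate 3 and -0.04 without sh2 replicate 3.

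Of 9 partners of EPCAM 8 were tested and 0 passed. The tetraspanin CD9 had log2 fold changes of -0.28 and -0.33 (SE 0.16 each). FHL2, a LIM protein that binds the cleaved EPCAM tail, had 0.59 and 0.92 (SE 0.33 each), or 0.21 and 0.54 without shNT replicate 3.

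**Figure D5:**
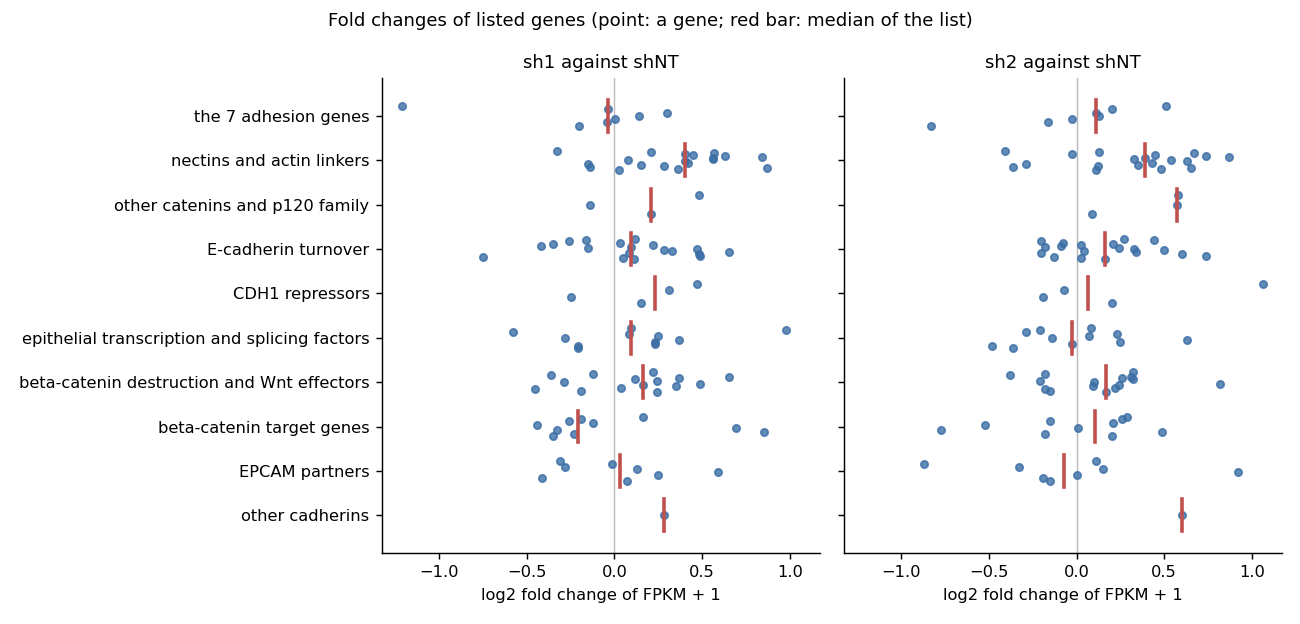
Log2 fold change of FPKM + 1 (x axis) of each tested gene by list (y axis) for sh1 and sh2 against the control; points are genes and red bars list medians. The nectins and actin linkers have medians of 0.40 and 0.39, and among the 7 adhesion genes CDH1 lies at the left for sh1 (-1.21) and EPCAM for sh2 (-0.83).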

How the data were processed

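The authors deposited 1 table of FPKM values for the 9 libraries, with replicates kept apart. The submitters' processing notes name hg19. The aligner, the counting and the depth were not given in the sources used here. No counting interval could therefore be computed. Groups and replicate numbers came from the sample titles. The deposited FPKM had lost decimal points: 10255 of 210330 values (4.88%) were divided by 1000, each by which reading lay nearer to the gene's values with a point. For the 7 genes this touched 38 of 63 values. All 9 values each of CTNNB1 and JUP had no point and no such reference, and were divided because they were at least 1000.

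Log2(FPKM + 1) of the 11952 genes with a mean of at least 1 FPKM was fitted with limma 3.58.1 in R 4.3.3 (variance trend, group as the factor, all 9 libraries, two-sided, Benjamini-Hochberg adjustment over all genes, threshold 0.05). The fit was run on simulated data with independent libraries and with changes larger than those of CDH1. That check does not cover changes of the size seen in CDH1, or libraries that vary together by replicate number. Fold changes on this scale understate the change of low genes. Tables and searches used Python 3.11.15 and pandas 2.3.3. Deviations from group means correlated at r 0.12 to 0.49 in all 9 pairs of libraries with the same replicate number, and at -0.63 to 0.20 in the 18 others. The labels do not say what the numbers mark. Errors and p-values come from the fit without them; a fit with the replicate block is named where it is used.

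The genes and lists were chosen with earlier results of these data known. In each list the text names genes past the threshold, the 2 with the smallest p over both hairpins and the 2 with the highest mean. It also names the 3 genes at each end of likeness to CDH1 and the 3 neighbours on each side. Some genes that this rule names are not reported here.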

Additional observations from a re-analysis of the deposited data

Results flagged for a closer look

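CDH1 was marked because its levels lay on opposite sides of the same controls: every sh1 library was lower and every sh2 library higher than all control libraries. The log2 difference, sh2 minus sh1, was 1.72. The difference was not tested here as a finding, since CDH1 was selected on these values. STAG2 overlapped between the hairpin groups (3.76 to 5.34 FPKM with sh1 and 3.41 to 4.93 with sh2).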

How the results depend on the processing

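Of 413 fold changes of the 7 genes under other settings, 406 moved by less than the spread between replicates, 7 moved further, all with spike-in scaling, and 0 called values changed sign. Spike-in scaling moved the median of all genes with sh2 to 0.21, from -0.012. With it the sh2 value was 0.76 for CDH1, -0.58 for EPCAM, 0.45 for CDH3, 0.37 for CTNNA1 and 0.39 for CTNNB1. Over both hairpins it was 0.26 for CDH3 and 0.31 for CTNNB1.

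The counts of genes past the threshold were less stable. For sh1 (20 genes) the count was 3 with a pseudocount of 0.1, 0 with spike-in scaling, 0 with only the groups compared and 77 with the replicate block. It was 0 to 14 with a library left out. For sh2 (1 gene) it was 3 with no filter on low values, 2 with spike-in scaling, 0 with only the groups compared, and 0 to 6 with a library left out. Over both hairpins (1 gene) it was 5 with no filter and 0 to 3 with a library left out. Between the hairpins (26 genes) it was 2 with no filter, 2 with spike-in scaling, 92 with only the groups compared, 17 with the replicate block, and 0 to 52 with a library left out. Among the 90 listed genes the replicate block added 1 call with sh1, PTPRU, and changed no other call of these genes or of the 7. Depth is unknown, so errors come from the replicates alone, and 3 libraries per group limit the precision.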
